A study of Homo sapiens with 2 samples.

Results

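The Notch receptors, their ligands and their direct target factors were examined in SK-N-MC cells with and without extra melanotransferrin. Members were all probe sets of the value table annotated to 1 gene of a set of 10: the receptors NOTCH1, NOTCH2 and NOTCH3, the ligands JAG1, JAG2, DLL1, DLL3 and DLK1, and the target factors HES1 and HEY1. They comprised 29 of 54675 probe sets and 10 of 19775 named genes. The rule goes by gene name and uses no measured value.

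SK-N-MC is a human tumour line that the submitters call a neuroepithelioma and that is now placed in the Ewing tumour family. Total RNA was hybridised to 2 Affymetrix U133 Plus 2.0 arrays. The vector control, labelled number 1, had been stably transfected with the expression vector pCMV-Script, whose cytomegalovirus promoter drives the insert. The hyperexpression line was labelled clone 4 and carried the human melanotransferrin cDNA in that vector. Melanotransferrin is a membrane-anchored relative of the iron carrier transferrin. Each group was 1 array of 1 transfected line, so there is no replicate spread, no test and no p-value. A difference due to the transgene cannot be told apart from a difference between 2 transfected lines.

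Notch receptors are single-pass membrane proteins that bind Delta-like or Jagged ligands on a neighbouring cell. Binding exposes the receptor to cleavage by an ADAM protease and then by gamma-secretase, and the freed intracellular part joins the DNA-binding factor RBPJ and a Mastermind coactivator in the nucleus. The best known targets are repressors of the HES and HEY families, which hold back proneural factors in developing neural tissue. Receptor activity depends on cleavage, so transcript levels of receptors and ligands do not measure signalling.

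The HES1 promoter is shown because HES1 is the classical target read on these arrays, and the JAG1 promoter because JAG1 was the member with the highest ratio. Sequences for 6 of the 10 genes were taken from RefSeq on GRCh38.p14. They are the 250 bases before the annotated start site on the strand of the gene. Capitals mark TGGGAA, the core of the RBPJ site, searched on both strands. HES1 lies at chr3:194135898-194136147 on the plus strand, and JAG1 at chr20:10674000-10674249 on the minus strand.
HES1: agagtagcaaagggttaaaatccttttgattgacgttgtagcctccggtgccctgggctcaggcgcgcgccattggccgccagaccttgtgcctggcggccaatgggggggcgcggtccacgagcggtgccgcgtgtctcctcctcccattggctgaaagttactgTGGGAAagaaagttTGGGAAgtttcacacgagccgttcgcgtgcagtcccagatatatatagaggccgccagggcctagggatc
JAG1: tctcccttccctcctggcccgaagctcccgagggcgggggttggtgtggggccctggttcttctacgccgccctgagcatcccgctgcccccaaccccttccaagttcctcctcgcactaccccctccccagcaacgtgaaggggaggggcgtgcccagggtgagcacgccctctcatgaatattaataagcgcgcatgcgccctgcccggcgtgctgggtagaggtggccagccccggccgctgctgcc

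The HES1 window held TGGGAA 2 times, beginning 84 and 70 bases before the start site. The first of them is also a match to the longer GTGGGAA, which contains TGGGAA. Of 35116 promoters of the same length, 20.8% held TGGGAA at least once, 2.90% held it at least 2 times and 5.43% held GTGGGAA. The other 5 windows searched, those of NOTCH1, NOTCH2, NOTCH3, JAG1 and JAG2, did not hold these letters. The promoters of HEY1, DLL1, DLL3 and DLK1 were not searched, so whether they hold these letters was not tested. Member promoters on chromosome 8, where HEY1 lies, were left out of the search. HEY1 is the other target factor, so HES1 has no second target set beside it here. A match describes the sequence and is not a measurement of binding.

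Signals are linear values as deposited, scaled to a common mean on both arrays, and a probe set is a group of short probes that reads 1 part of a transcript. Signals of different probe sets are not compared with each other, since each binds its target with its own strength. A floor of 208 was taken from probe sets for genes with no expected role in these cells, such as olfactory receptors. A gene was represented by its brightest probe set and counted as measured if that probe set lay above the floor on at least 1 array. Ratios are clone over control on the log2 scale, and the median over 12663 measured genes was -0.022.

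Melanotransferrin (MELTF) had 4 probe sets, and 1 of them read 18.4 on the control and 4449.4 on the clone array, at least 21.4-fold higher. The other 3 did not show this difference. As a check of the labelled line, all 5 analysed Ewing tumour markers, CD99 among them, were above the floor on both arrays. Their log2 ratios were 0.035 (CD99), 0.11 (NKX2-2), 0.47 (STEAP1), -0.048 (PAX7) and 0.76 (LIPI). Of the markers of other cell types, 4 of 6 endothelial, 4 of 5 leukocyte, 3 of 5 epithelial, 2 of 4 melanocyte and 1 of 6 fibroblast genes were below the floor on both arrays. Among the endothelial markers that cleared the floor, CDH5 had a log2 bound of 1.03 and PECAM1 a log2 ratio of -0.89. The epithelial KRT8 and KRT18 had -1.05 and 0.087, and the leukocyte PTPRC had -0.16. The fibroblast COL1A1, COL1A2, COL3A1, DCN and LUM had -0.60, 0.65, 0.017, 0.066 and -0.031. The melanocyte MITF had 0.67 and PMEL a bound of -0.065. Summed signals of these lists in control and clone were 863.2 and 764.0 for endothelium, 16020 and 14100 for leukocytes and 10720 and 10852 for epithelium. They were 653.0 and 734.7 for melanocytes and 45997 and 44139 for fibroblasts, beside 74856 and 87842 for the Ewing markers. The sums add probe sets of unlike binding strength, some of them below the floor. Bright single genes such as PTPRC, at 15581 and 13943, make up most of some sums. The part of these cell types in the Notch values was not tested.

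Of the 10 Notch genes, 8 were measured, and 0 of the 8 differed 2-fold or more between the arrays. Among all measured genes 3.1% did so. Of the 14 probe sets of these genes that cleared the floor in both lines, 0 passed 2-fold, beside 2.44% of 20191 such probe sets of all genes. As deposited, 6 of the 8 ratios were above the median of all genes and 2 below it, and the median of the 8 was 0.26. JAG1 stood highest at 0.72 and DLL3 lowest at -0.85. DLL1 and DLK1 did not reach the floor on either array. At a smaller size of 1.5-fold, JAG1 was the member counted higher and DLL3 the member counted lower, beside 5.38% and 8.43% of all measured genes in those directions. With so few genes these counts say nothing particular about the Notch set.

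**Figure D1:**
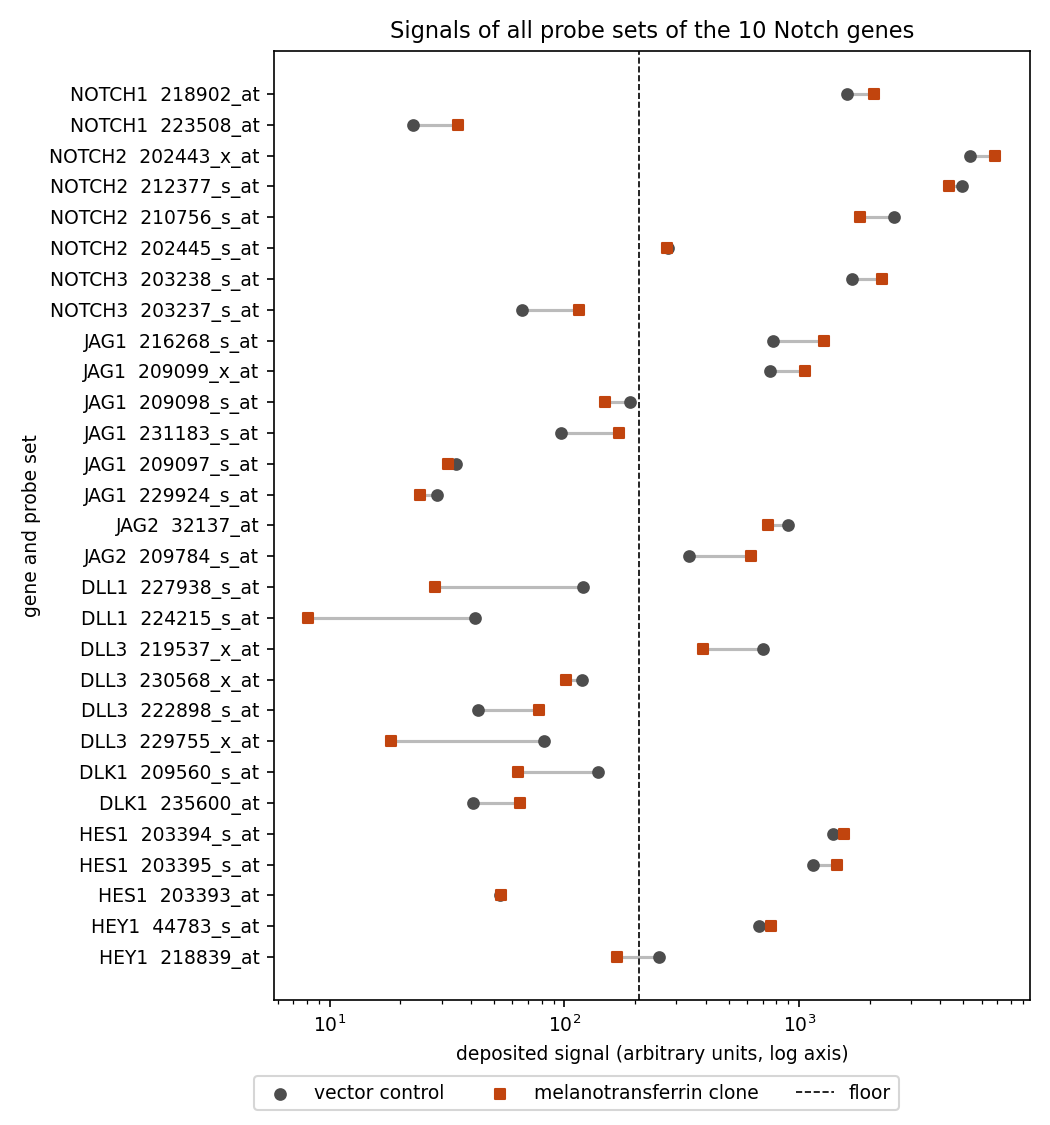
Deposited signals (log axis, arbitrary units) of the 29 probe sets of the 10 genes on the control array (circles) and the clone array (squares), with the floor of 208 as a dashed line. Of the 29 probe sets, 14 lie above the floor for both lines, 14 for neither and 1 for the control alone.

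Among the receptors, NOTCH1 read 1597.4 on the control and 2075.4 on the clone array on probe set 218902_at, a log2 ratio of 0.38. NOTCH1 acts in neural and blood progenitors among other tissues. Its second probe set, 223508_at, read 22.6 and 35.2, below the floor on both arrays. So 1 reading carries the NOTCH1 value, and 28.4% of measured genes lay at least as far from an equal signal in either direction.

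NOTCH3, a receptor best known from vascular smooth muscle, read 1681.2 on the control and 2253.3 on the clone array on 203238_s_at, a log2 ratio of 0.42. Its other probe set read 65.9 and 115.6, below the floor. Of all measured genes 24.5% lay at least as far from an equal signal. The NOTCH1 and NOTCH3 ratios were of similar size, and neither has a second measured probe set to set beside it.

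NOTCH2 had 4 measured probe sets, and they did not point one way. The brightest, 202443_x_at, read 5366.7 and 6857.3, a log2 ratio of 0.35. The next, 212377_s_at, read 4949.3 and 4370.2, a ratio of -0.18. The probe set 210756_s_at read 2545.2 and 1817.8, a ratio of -0.49, and 202445_s_at read 276.3 and 274.5, a ratio of -0.0094.

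The NOTCH2 ratios thus spanned 0.84 on the log2 scale, and 1 of the 4 was higher in the clone. Among 605 genes with 4 measured probe sets, 31.7% spanned at least as much, and the median span was 0.65. The median of the 4 NOTCH2 ratios was -0.094, against 0.35 on the brightest. A further probe set, 227067_x_at, is annotated to NOTCH2 together with the NOTCH2NL copies of its first part and was left out by the rule. It read 1720.6 and 1630.2, a log2 ratio of -0.078. All 3 receptors were higher in the clone on their brightest probe sets as deposited, whereas all 3 were lower when the arrays were centred on poly-A spikes, and NOTCH2 was lower as the median of its probe sets.

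**Figure D2:**
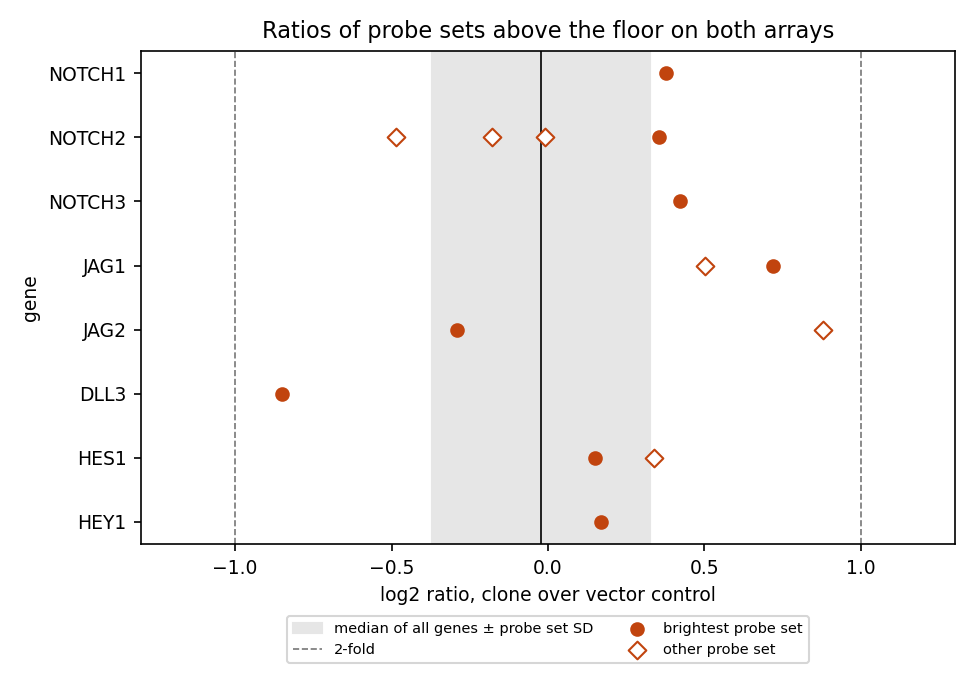
Log2 ratio of clone over vector control (horizontal axis) for the 14 probe sets that cleared the floor in both lines, by gene; filled circles are each gene's brightest probe set and open diamonds the others. The grey band is the median of all genes plus and minus the pooled SD of 0.35 between probe sets of a gene, and the dashed lines mark 2-fold; NOTCH2 and JAG2 have probe sets on both sides of 0, and all points lie inside 2-fold. Centring on poly-A spikes would move all points left by 0.61 and centring on hybridisation spikes right by 0.50.

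NOTCH1 lies on chromosome 9, where the median of measured genes was higher in the clone as deposited. It was lower, at -0.13, with the arrays centred on poly-A spikes. Centring shifts all genes alike, so the rank of chromosome 9 among chromosomes could not change. The 445 genes of this chromosome above the floor on both arrays had a median log2 ratio of 0.48, the highest of 23 chromosomes with at least 50 such genes, and the second, chromosome 13, had 0.14. The 20 nearest such genes to NOTCH1, 10 on each side, had a median of 0.39, next to 0.38 for NOTCH1 itself. Of these neighbours 18 were higher in the clone as deposited and 10 had a ratio above that of NOTCH1. They ran from -0.49 (LINC02846) to 1.02 (QSOX2).

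The other measured Notch genes lie on chromosomes with medians between -0.038 and 0.0061. NOTCH3 had 20 neighbours with a median of -0.12 beside its own ratio of 0.42. The 20 neighbours of JAG1 had a median of 0.16 beside its ratio of 0.72, and those of DLL3 had -0.014 beside -0.85. NOTCH1 was the only 1 of the 10 genes on chromosome 9. Its ratio sat in the middle of those of its neighbours, with 10 above it.

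**Figure D3:**
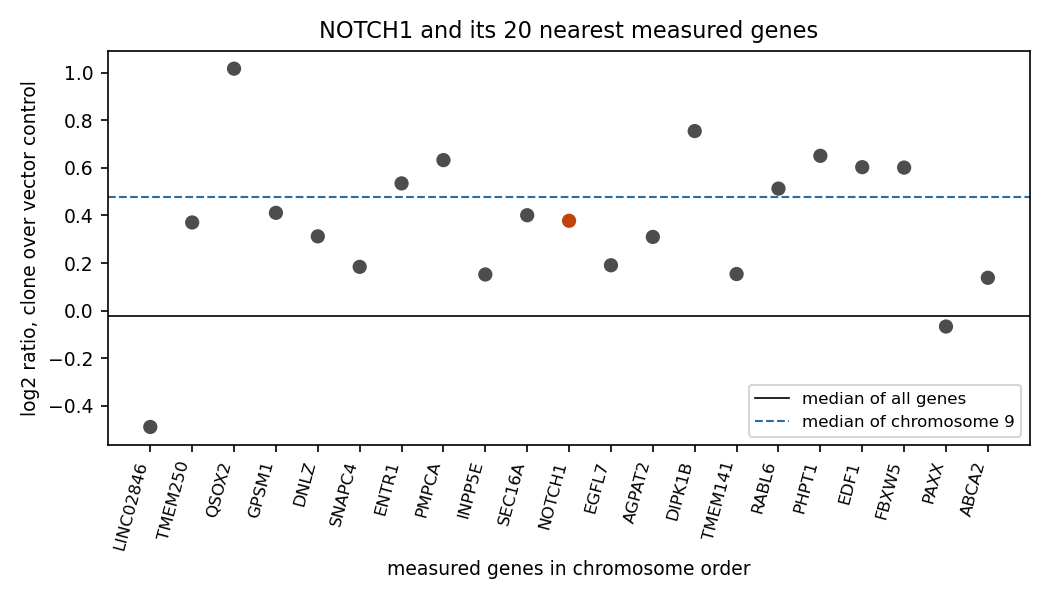
Log2 ratio of clone over vector control (vertical axis) for NOTCH1 (coloured) and the 10 nearest genes on each side that were above the floor on both arrays, in chromosome order. The solid line is the median of all genes, -0.022, and the dashed line that of chromosome 9, 0.48; 18 of the 20 neighbours lie above 0 on the deposited scale.

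Among the ligands, JAG1 was higher in the clone on both of its measured probe sets as deposited; centred on poly-A spikes, the brightest stayed higher at 0.11 and the second turned to -0.11. JAG1 encodes Jagged 1, a canonical ligand. Its brightest probe set, 216268_s_at, read 771.3 on the control and 1270.7 on the clone array, 1.65-fold higher with a log2 ratio of 0.72. The second, 209099_x_at, read 750.8 and 1062.1, a log2 ratio of 0.50. These 2 differed by 0.22, less than the median of 0.28 among 2969 genes with 2 measured probe sets.

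The other 4 probe sets for JAG1 were below the floor on both arrays. They read 190.9 and 148.3, 97.0 and 171.3, 34.6 and 31.8, and 28.7 and 24.3. Of all measured genes 8.77% lay at least as far from an equal signal as JAG1 did. The value for JAG1 stayed higher in the clone in each of the 11 alternatives that gave it a value, from 0.11 with the arrays centred on poly-A spikes to 1.22 with hybridisation spikes, the setting in which it passed 2-fold. These alternatives rework the same readings of the same 2 arrays and are not repeats. JAG1 had no value with probe sets of shared sequence (named _s_at or _x_at) left out, since all its probe sets are of that type.

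JAG2, the second Jagged ligand, had 2 measured probe sets that went in opposite directions. The brighter, 32137_at, read 896.5 on the control and 733.1 on the clone array, a log2 ratio of -0.29. The other, 209784_s_at, read 340.4 and 625.8, 1.84-fold higher with a ratio of 0.88. The gap of 1.17 was reached by 2.43% of the 2969 genes with 2 measured probe sets, while probe sets of both signs within a gene were found in 54.8% of 5387 genes. No direction is given for JAG2.

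DLL3, a divergent Delta-like protein found in neuroendocrine tumours and known to inhibit signalling in its own cell, was the lowest member. Its brightest probe set, 219537_x_at, read 699.4 on the control and 388.4 on the clone array, 1.80-fold lower with a log2 ratio of -0.85. Of all measured genes 5.43% lay at least as far from an equal signal. The other 3 probe sets of DLL3 stayed under the floor, with 119.1 and 101.4, 42.7 and 78.2, and 82.0 and 18.3. DLL3 stayed lower in each of the 11 alternatives that gave it a value, with log2 ratios from -1.46 to -0.35. It had no value with probe sets of shared sequence left out, since all its probe sets are of that type. The alternatives rework the same readings, so they add no second reading of DLL3.

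DLL1, a canonical Delta-like ligand, was not measured, with 120.1 in the control and 28.2 in the clone on 227938_s_at and 41.6 and 8.1 on 224215_s_at. DLK1, an imprinted Delta-like protein without the receptor-binding domain of the canonical ligands, read 138.4 and 63.5 on 209560_s_at and 40.6 and 64.7 on 235600_at. No fold is given for either gene. Of the 14 member probe sets below the floor on both arrays, 8 read lower in the clone, beside 61.7% of the 17101 such probe sets of all genes. Probe sets for genes not expected in this cell type had medians of 67.4 in the control and 44.0 in the clone, so low signals read lower on the clone array in general.

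The 2 target factors had ratios close to those of all genes. HES1 encodes a repressor that Notch induces in many tissues, and its probe set 203394_s_at read 1395.3 on the control and 1548.8 on the clone array, a log2 ratio of 0.15. The second, 203395_s_at, read 1150.4 and 1453.9, a ratio of 0.34, and the remaining probe set was below the floor at 53.2 and 53.4. Of all measured genes 62.9% lay at least as far from an equal signal as HES1 did on its brightest probe set. HES1 is the gene whose promoter holds the 2 TGGGAA matches shown above.

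HEY1, a related repressor known from vascular and cardiac development, read 673.7 on the control and 757.4 on the clone array on 44783_s_at, a log2 ratio of 0.17. Its other probe set, 218839_at, read 251.9 on the control and 168.2 on the clone array, below the floor there, so that reading was at least 1.21-fold lower. The 2 probe sets went in opposite directions, and 59.4% of measured genes lay at least as far from an equal signal as the brighter one. Both targets turned lower when the arrays were centred on poly-A spikes, at -0.46 for HES1 and -0.44 for HEY1.

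The rest of the pathway was read from a list of 92 further genes arranged by role. Of these, 82 had a probe set of their own, 17 were below the floor on both arrays and 65 were measured. In the clone 0 of the 65 were at least 2-fold higher, beside 1.21% of all measured genes, and 2 were at least 2-fold lower, beside 1.9%. The median was -0.072 over the 65 and 0.037 over the 53 above the floor on both arrays. On these counts the list did not stand apart from the array as a whole.

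The 2 genes past 2-fold were MIB2 and CCN3, and in both another probe set went the other way. MIB2, a ubiquitin ligase that promotes endocytosis of Notch ligands, read 609.4 on the control and 241.3 on the clone array on its brightest probe set, 2.53-fold lower. Its second read 374.4 and 411.5, a log2 ratio of 0.14, and the third 371.1 and 144.9, at least 1.78-fold lower. CCN3, a secreted matricellular protein reported to bind NOTCH1, read 425.6 and 145.1, at least 2.05-fold lower. Its other probe set read 200.4 and 276.7, at least 1.33-fold higher.

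MIB1, the main ligase for Notch ligands, read 3772.5 on the control and 4538.3 on the clone array, a log2 ratio of 0.27 on its brightest probe set. Its other 3 measured probe sets gave 0.40, 0.61 and 0.77, so all 4 were higher as deposited; centring on poly-A spikes lowers each by 0.61. NEURL1B, a related ligase with 1 probe set, stood at 0.33, and EPN1, an endocytic adaptor, stood at -0.80 on its brightest probe set and at 0.33 on its second. NOTCH4 read 245.2 on the control and 170.6 on the clone array, at least 1.18-fold lower, and DLL4 was below the floor at 100.9 and 23.7.

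Non-canonical ligands spread most widely among the groups by a small margin, from -1.03, the bound of CCN3, to 0.75. The range for ligand endocytosis was -1.34 to 0.33, with 2 of its 6 measured genes above the median of all genes and 4 below. CNTN1, a neuronal contactin, read 607.5 on the control and 1018.2 on the clone array, a log2 ratio of 0.75, and its second measured probe set gave 0.17. DNER, a neuronal transmembrane protein with EGF repeats, read 2574.3 and 3563.0, a ratio of 0.47. DLK2, the closest relative of DLK1, had 1 probe set, which read 961.4 and 501.2, 1.92-fold lower. Of 7 measured genes of this group, 4 were above the median of all genes and 3 below it.

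Transcripts for the enzymes that modify and cut the receptor included several whose probe sets differed from each other. On their brightest probe sets the 8 measured cleavage genes ran from -0.16 (FURIN, the convertase that matures the receptor), with APH1B at a bound of -0.12, to 0.29 (PSEN2, a gamma-secretase subunit). ADAM10, the main protease of ligand-activated Notch, read 7938.9 on the control and 8146.7 on the clone array, a log2 ratio of 0.037, and its other probe sets gave -0.28 and -0.42. ADAM17, a related protease, gave -0.092 on its brightest probe set and -0.41 on the next, and the dimmest read 367.3 and 175.1, at least 1.77-fold lower. The second measured probe set of PSEN2 gave -0.093. Of the 8 measured cleavage genes, 2 were above the median of all genes and 6 below it. Among glycosylation genes POGLUT1, which adds glucose to the EGF repeats, stood at 0.28 and, on a second probe set, at 0.028, POFUT1, which adds fucose to them, at 0.058 and RFNG, a Fringe enzyme, at -0.27. The Fringe genes LFNG and MFNG were below the floor.

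Of 13 measured genes of receptor turnover, 5 were above the median of all genes and 8 below it. DTX4, a Deltex ubiquitin ligase, had the lowest log2 ratio, at -0.69, followed by FBXW7, which marks the cleaved receptor for degradation, at -0.42. The other 2 measured probe sets of FBXW7 gave -0.25 and a bound of -0.91. AAK1, an endocytic kinase, had the highest on brightest probe sets, at 0.31, with 0.68 and 0.31 on its other 2, and NRARP, a feedback inhibitor that Notch induces, read 1737.1 and 2066.9, a ratio of 0.25. NRARP lies on chromosome 9, as does EGFL7, a secreted ligand-like protein next to NOTCH1, at 0.19.

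In the nucleus, RBPJ read 2341.1 on the control and 2638.7 on the clone array, a log2 ratio of 0.17, and its second measured probe set gave 0.022. The coactivator MAML1 read 4349.6 and 5016.7, a ratio of 0.21, SNW1 had the highest ratio of its group on brightest probe sets at 0.25, with 0.024 on its second, and KAT2B and MAML3 the lowest at -0.54 and at -0.55, the latter a bound. Of 8 measured genes of the activating complex, 4 were above the median of all genes and 4 below it. Of 11 measured genes of the repressing complex, 7 were above it and 4 below. On brightest probe sets the corepressors TLE3 and HDAC2 had the lowest ratios, at -0.16 and -0.13, and TLE2 and TLE1 the highest, at 0.33 and 0.42. The other measured probe sets of TLE3 gave 0.57, -0.96 and -0.28, and those of HDAC2 and TLE2 went the other way from the brightest, at 0.13 and -0.46. TLE1, which lies on chromosome 9, gave 0.83 on its second probe set and a bound of 0.49 on the third.

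Of the other HES and HEY genes, HES4 read 1273.8 on the control and 1481.5 on the clone array, a log2 ratio of 0.22. HES6, which opposes HES1 and favours neuronal differentiation, read 4541.7 and 3203.8, a ratio of -0.50. HEYL read 407.1 and 96.3, at least 1.96-fold lower, and HES7 304.2 and 127.1, at least 1.46-fold lower. Both are bounds. Low signals read lower on the clone array in general, and whether that bears on HEYL and HES7 was not tested. The second HEYL probe set stayed below the floor, at 48.0 and 75.2. HES2 and HES5 were below the floor on both arrays, and HEY2 read 112.0 and 211.9, just above the floor in the clone.

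All 6 analysed proneural factors, NEUROG1, NEUROG2, NEUROG3, ATOH1, NEUROD4 and OLIG2, were below the floor on both arrays. In the imprinted domain that holds DLK1, the non-coding MEG3 read 240.1 on the control and 201.5 on the clone array, and 128.1 and 208.1 on a second probe set. DIO3 read 167.6 and 208.9, and BEGAIN 336.3 and 361.7, a log2 ratio of 0.11. MEG8 and RTL1 of this domain were not analysed here.

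**Figure D4:**
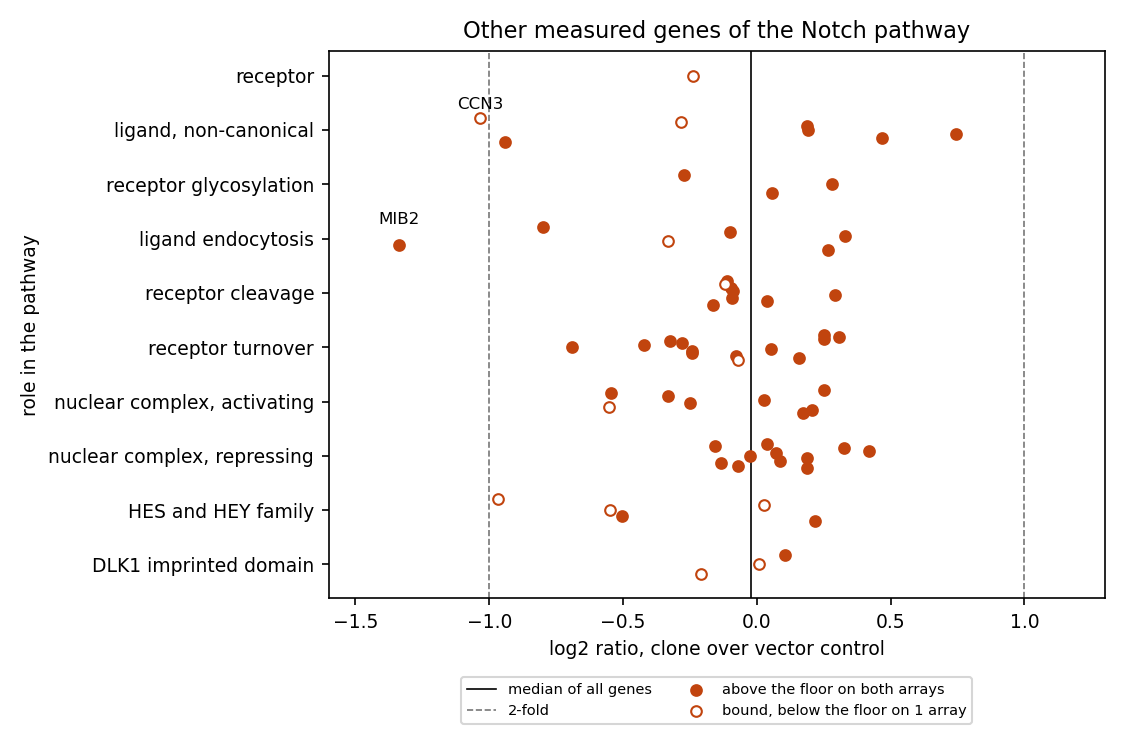
Log2 ratio of clone over vector control (horizontal axis) for the 65 measured genes of the wider pathway list, by role; filled points are above the floor on both arrays and open points are bounds from genes below it on 1 array. The solid line is the median of all genes and the dashed lines mark 2-fold; MIB2 and CCN3 are the 2 genes past it, and the split about 0 depends on the scaling, since centring on poly-A spikes gives 11 genes past 2-fold, all lower, and centring on hybridisation spikes 1, which is higher.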

How the data were processed

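Total RNA of 2 arrays, 1 per group, was compared; groups came from the labels. The authors deposited linear intensity values, 1 per probe set and array, made with GCOS 1.3, per the submitters' processing notes. How probe signals were summarised and to what target they were scaled was not given in the sources used here. After dropping the lowest and highest 2%, the deposited intensity values had a mean of 1000.12 on both arrays, so a change common to most transcripts cannot be seen.

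Probe sets were named from the platform annotation of 2016: 41097 had 1 gene symbol, 1801 several and 11777 none here. Symbols of 41043 were updated through RefSeq (GRCh38.p14). The floor of 208 is the 90th percentile of 191 probe sets for olfactory receptors, taste receptors and keratin-associated proteins over both arrays. Below it on 1 array, a signal was set to the floor and the ratio is a bound. The pooled SD of log2 ratios between probe sets of a gene was 0.35 over 5387 genes; it covers disagreement between probe sets and leaves out variation between arrays, cultures and clones. The number of arrays limits the precision.

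The members and lists were chosen with earlier results of these data known. Named were all members, pathway genes past 2-fold and up to 2 genes per direction in each role; others are examples picked after their values were seen. Neighbouring genes were added in the same way. A likeness of pattern between genes was not computed with 2 arrays. Python 3.11.15, numpy 2.4.6, pandas 2.3.3, statsmodels 0.14.6 and matplotlib 3.10.9 were used, and the ratio calculation was tested on simulated data. There were 13 alternative settings.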

Additional observations from a re-analysis of the deposited data

How the results depend on the processing

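Directions depended first on the scaling. Centring on the 18 hybridisation spikes moved every log2 ratio by 0.50 and gave 1 Notch gene, JAG1, past 2-fold with a median of 0.76; centring on the 24 poly-A spikes moved them by -0.61 and gave 1, DLL3, with a median of -0.35. The wider list then had 1 and 11 genes past 2-fold, with medians of 0.43 and -0.68. Centring shifts all genes alike, so the count of 6 of 8 Notch genes above the median of all genes could not change with either. That count was 5 of 8 as the median over probe sets and 1 of 3 without probe sets of shared sequence. Those 3 Notch genes had a median of -0.28. At 1.5-fold the counts were 2 Notch genes and 7 of the wider list. The wider count of 2 became 5 with the floor at the 75th percentile and 0 with the floor 2 times as high. Both follow from the floor. The count was 0 with the median over probe sets and 1 with a loess or with 100 added. The gene that stayed was MIB2, at -1.25 with a loess and -1.06 with 100 added, while CCN3 stood at -0.93 and -0.77. In the remaining settings the Notch count stayed at 0. HEY1 went to -0.28 without shared probe sets and JAG2 to 0.29 as the median of its probe sets. The ratio of MIB2 was -0.84 and that of CCN3 -0.31 as the median over probe sets. No paired analysis was possible because each group has 1 array. Signals near the floor limit DLL1, DLK1 and the dim HES and HEY genes, which could not be measured or only as bounds; DLL1 and DLK1 had a value, a bound, in the setting with the lower floor alone.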
